A study of Danio rerio with 2 samples.

Results

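The genes described here build the membrane and the cytoskeleton of the lens fibre cell, and they were chosen by name, at a time when earlier results of these data were known. They are the water channel genes mipa and mipb, the membrane protein gene lim2.1, the connexin gene gja8b, the beaded filament genes bfsp1 and bfsp2, the nuclease gene dnase1l1l and the transcription factor gene hsf4. Probes were found for 7 of these 8 genes, 16 probes in all, among 43553 probes for 27425 genes and unnamed targets. No probe was matched to bfsp1.

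The lens grows by adding fibre cells. Cells of the lens epithelium stop dividing, elongate, fill with crystallins, and then lose their nuclei and other organelles, which leaves a clear path for light. A mature fibre cell keeps a membrane packed with water channels and gap junctions and a cytoskeleton of beaded filaments, a kind of intermediate filament found in the lens alone.

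The study compared embryos of the WT AB line with embryos of the Tg(RE:HSE:EGFP) line, an AB background line in which a bidirectional promoter of heat shock elements drives EGFP on one side and a fusion of human RUNX1 and Evi-1 on the other. This promoter answers to heat and is not limited to blood. A heat shock of 1 hour at 38 °C was given to both groups when they had reached 16 hpf (the sample labels allow 14 to 18 hpf), and collection is labelled as 72 hpf, so WT embryos had the heat shock without the transgene. The Tg embryos were of the F2 generation, in which the study reports EGFP in most but not all offspring after heat shock. A gradual loss of EGFP in most fish is described in their later follow-up, not for embryos. No selection by EGFP is described for the arrays, and the sources used here do not give the number of embryos behind each RNA.

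Total RNA of embryos was labelled with Cy3 and hybridized to 1-colour Agilent arrays, and 1 array per group was analysed here. With 1 array a group there is no spread between embryos to set a difference against, so no p-value is given, and array and group cannot be told apart. All values are normalized log2 signals as deposited. Median signals were 7.18 for WT and 7.17 for Tg. Background was set from 178 probes for receptors of odorants, tastes and trace amines, which few embryonic cells use. A probe counted as above background when it passed their 95th percentile, and this limit was 6.70 on both arrays. By it 14578 genes were above background on both arrays, 816 on the WT-labelled array only and 920 on the Tg-labelled array only. Neither the fusion gene nor EGFP has a named probe, so the arrays carry no reading of the transgene. The study's text speaks at one point of blood cells, while the labels and methods say embryos, and the crystallin gene crygm2d18 (12.54 and 15.82) and all 26 skeletal muscle genes with a probe were above background on both arrays.

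Differences are given as the Tg-labelled array minus the WT-labelled array, with both arrays first set to a common 75th percentile, a shift of -0.001. For hdac4 and h1fx, which the study lists as higher in Tg fish, this direction is the opposite of the study's. The pair of levels the study lists for h1fx is that of a deposited probe with WT and Tg exchanged, while the pair it lists for hdac4 is not that of any deposited hdac4 probe in either order. Both probes of each gene were lower on the Tg-labelled array, by differences of -0.34 and -1.19 for hdac4 and of -1.12 and -1.34 for h1fx (now named h1-10). The arrays are therefore called WT-labelled and Tg-labelled, and an exchange of these labels would turn every sign below and leave every size as it is. The arrays are of whole embryos, so that a different number of lens cells and a different amount of RNA per lens cell cannot be told apart in any value.

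The probes of the lens fibre genes lie on 6 chromosomes of the assembly the files use, whose contig names begin with Zv8. Both water channel genes are on chromosome 23, mipb with probes at 4612531 to 4612590 and 4614977 to 4615036 and mipa at 26515813 to 26515872 and 26516872 to 26516931, all on the plus strand. The lim2.1 probes lie on chromosome 10 (minus strand, 27989855 to 27990268), those of gja8b on chromosome 1 (minus strand, 47801829 to 47803205), those of bfsp2 on chromosome 2 (minus strand, 30739260 to 30744587) and those of dnase1l1l on chromosome 8 (plus strand, 26122474 to 26125022). The hsf4 probe is on chromosome 18 (minus strand, 23105597 to 23105792). The usual placement of a probe is 60 bases. A probe of bfsp2 covers 142 bases, the hsf4 probe 196, a probe of lim2.1 391 and a probe of dnase1l1l 1208 (a lim2.1 probe covers 57). The 2 brightest bfsp2 probes share 43 bases and the 2 brightest gja8b probes share 22, so these are not separate readings of the transcript. In the files gja8b is listed under its older symbol cx44.1, bfsp2 as zgc:103750 and dnase1l1l as dnase1l3l.

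The genes mipa and mipb are zebrafish copies of MIP, the gene of aquaporin 0, which is among the most abundant proteins of the fibre membrane in vertebrates. The brightest mipb probe had log2 levels of 9.54 (WT) and 11.04 (Tg), which is 2.82-fold higher on the Tg-labelled array. Its other probe went from 7.72 to 8.65, or 1.91-fold. Both probes of mipb were thus higher on the Tg-labelled array, and only the brighter one passed 2-fold. For mipa the brightest probe was at 9.67 (WT) and 9.96 (Tg), a ratio of 1.23, and the other probe at 9.07 and 9.65, a ratio of 1.49. The lower of the mipb differences (0.94) was above the higher of the mipa differences (0.58). The gap between the 2 genes was 1.2 log2 units by the brightest probes and 0.36 by the others, so its size depends on the probe that is read.

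Of 14578 genes above background on both arrays, 213 had a difference at least as high as mipb (1.46%) and 3693 as high as mipa (25.3%). Of 15 other water channel genes with a probe, most of them used outside the lens, 9 were above background on 1 array or both, none was called in either direction, and the median over the 7 above background on both was 0.15. The largest differences among them were 0.74 for aqp8a.1, read by 1 probe, and -0.50 for aqp3a, a channel for water and glycerol, whose other probe was at -0.37.

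The gene lim2.1 encodes a lens intrinsic membrane protein with several membrane-spanning stretches, the counterpart of the mammalian MP20 of fibre cell junctions. Its brighter probe was at 11.25 (WT) and 12.12 (Tg) and its other probe at 11.19 (WT) and 11.96 (Tg). The differences of 0.88 and 0.77 (1.84-fold and 1.70-fold) were close to each other and fell short of 2-fold. The probes overlap in their placement, by 34 bases of genome.

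The 4 other lim2 genes of zebrafish were on the same side. The brightest lim2.4 probe was at 9.77 (WT) and 11.14 (Tg), a difference of 1.37, and the other lim2.4 probe at 9.27 and 10.86, a difference of 1.58. For lim2.2 the levels were 7.16 and 8.18, a difference of 1.01, with 0.65 by its other probe, and for lim2.3 they were 10.23 and 11.04, a difference of 0.81, with 0.95 by its other probe. The single probe of lim2.5 was at 6.02 on the WT-labelled array, not above background, and at 7.94 on the Tg-labelled array, which makes it at least 2.36-fold higher there, a bound taken against the lowest signal above background on the other array. All 9 probes of the lim2 genes, lim2.1 included, had a difference above 0, and by the brightest probe lim2.2, lim2.4 and lim2.5 passed 2-fold while lim2.1 and lim2.3 did not.

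The connexin gene gja8b encodes a gap junction protein of the zebrafish lens. Its brightest probe was at 6.71 on the WT-labelled array and 6.69 on the Tg-labelled array, at the limit of background on both. The probe sharing bases with it read 6.78 and 6.58, and the third 5.56 and 5.38. No change can be given for gja8b from signals this dim. Genes of related lens connexins, gja3 and gja8a, were not above background on either array (gja3 at 5.51 and 5.53, gja8a at 5.85 and 6.27).

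Among 32 other connexin genes 14 were above background on 1 array or both and none was called. The median over the 12 above background on both was -0.12. The largest difference was that of gje1a, at 9.16 (WT) and 10.15 (Tg), which is 1.99-fold, with 0.77 on the log2 scale by its other probe. Values for gja5b (-0.52), gja13.2 (0.50) and gja2 (-0.41) followed, and the other gja2 probe was at 0.17, on the opposite side of 0.

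Beaded filaments are copolymers of filensin, the product of bfsp1, and phakinin, the product of bfsp2. With bfsp1 unmatched, bfsp2 alone reads this structure. Its 4 probes, from brightest to dimmest, had WT levels of 8.44, 7.74, 7.36 and 6.32 and Tg levels of 9.94, 9.34, 8.83 and 7.58. The differences of the 3 brighter probes were 1.496, 1.59 and 1.48, or 2.82-fold, 3.01-fold and 2.78-fold. The dimmest was not above background on the WT-labelled array and was at least 1.84-fold higher on the Tg-labelled one. Thus 3 of the 4 bfsp2 probes passed 2-fold, among them 2 that lie 3171 bases apart, and the bound of the dimmest fell short of it. A difference as high as that of the brightest probe was seen for 212 of 14578 genes (1.45%).

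Genes of intermediate filaments made elsewhere in the body were mixed. Of 22 with a probe 21 were above background on 1 array or both, 1 was called higher and 1 lower at 2-fold, and the median over 19 was -0.18. The higher one was nefma, a neurofilament gene of neurons (7.44 and 9.22, 1.77), with 0.88 by its next probe and 0.25 and 0.21 by 2 dim probes. The lower one was krt5, a keratin gene of the epidermis, with differences from -1.36 to -1.82 over 5 probes. Further values were 0.92 for the neurofilament gene neflb, of which the probe read was at the limit of background on the WT-labelled array (6.71) and above it on the Tg-labelled one (7.63), and -0.83 for desma, the desmin gene of muscle, whose other probes were at -0.88 and -0.79.

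In the zebrafish lens dnase1l1l encodes a nuclease that breaks down DNA as fibre cells lose their nuclei, and hsf4 encodes a heat shock factor on which the maturation of lens fibre cells depends. The brighter dnase1l1l probe was at 6.74 on the WT-labelled array and 8.83 on the Tg-labelled array, or 4.24-fold higher there. This was the highest difference among the lens fibre genes, and 74 of 14578 genes (0.508%) reached it. On the WT-labelled array the probe lay only 0.04 above the limit of background, so the level there is little more than a bound. The dimmer probe, placed 1281 bases away, was at 6.04, not above background, and at 7.36, or at least 1.57-fold higher on the Tg-labelled array. Both probes of dnase1l1l were above background there, and only the brighter one passed 2-fold.

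The hsf4 probe was at 5.91 on the WT-labelled array and 5.73 on the Tg-labelled array, under the limit on both, so that no change can be given for hsf4. Of the other heat shock factor genes, hsf1, the main factor of the heat shock response, was at 11.29 and 10.60, a difference of -0.69, with -0.50 and, for a dim probe, 0.16 by its others. The gene hsf2 was at 9.81 and 10.14 (0.33). None of 9 other DNase genes was called, with a median of -0.01 over 6 genes above background on both arrays. The largest differences there were -0.82 for dnase1l4.1, 0.37 for dnase1l1 (0.67 by its other probe), 0.37 for endog, a nuclease of mitochondria, and -0.28 for dnase2, a nuclease of lysosomes.

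**Figure D1:**
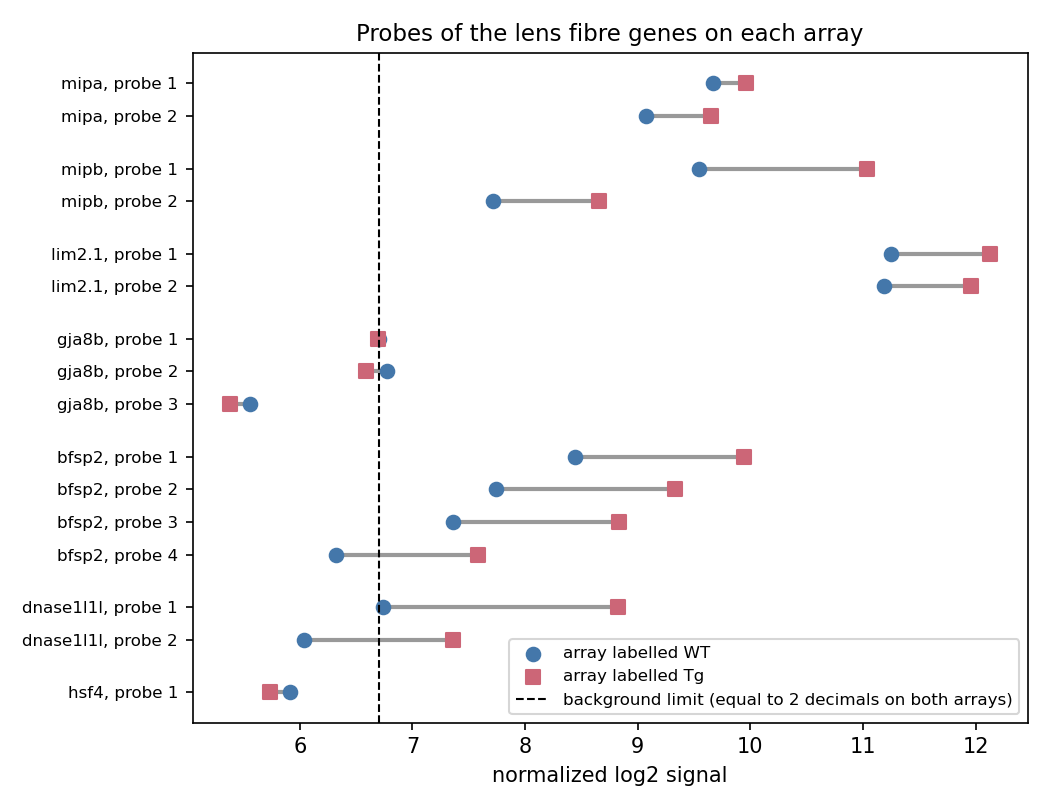
Normalized log2 signal (horizontal axis) of each of the 16 probes of the lens fibre genes on the WT-labelled array (circles) and the Tg-labelled array (squares), 1 array each, with probe 1 the brightest of its gene and a dashed line at the background limit of 6.70. All probes of mipa, mipb, lim2.1, bfsp2 and dnase1l1l lie further right on the Tg-labelled array, and those of gja8b and hsf4 lie near or under the limit.

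Of the 8 lens fibre genes, 3 (mipb, bfsp2 and dnase1l1l) passed 2-fold in the direction of the Tg-labelled array and none passed it in the other. Over all 16314 genes above background on at least 1 array, 4.71% were called higher and 3.52% lower. At 1.5-fold lim2.1 joined mipb, bfsp2 and dnase1l1l, with 12.3% of all genes higher and 12.5% lower, and at 4-fold dnase1l1l alone was left, with 0.680% of all genes higher and 0.233% lower. Not called at 2-fold were mipa and lim2.1, under 2-fold, gja8b, at the limit of background, hsf4, under it, and bfsp1, with no probe. All 5 genes above background on both arrays had a difference above 0, as did 47.3% of all such genes. Their differences ran from 0.29 to 2.08 with a median of 1.49, against -0.03 over all genes above background on both. With no filter on dim signals the median over the 7 genes with a probe was 0.88. For dnase1l1l the call rests on the background limit: when the limit was raised to the 99th percentile of those receptor probes, the WT level became a bound, with dnase1l1l at least 1.47-fold higher, and 2 genes were called.

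**Figure D2:**
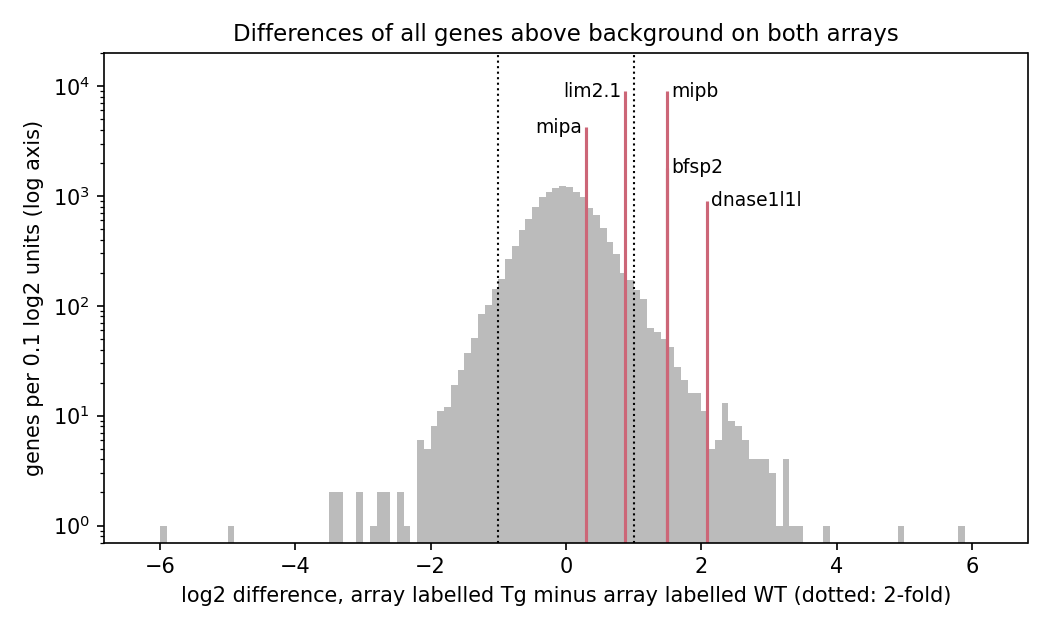
Histogram of the log2 difference (horizontal axis, Tg-labelled minus WT-labelled array) of 14578 genes above background on both arrays, with the number of genes per bin of 0.1 on a log axis. Vertical lines mark mipa (0.29), lim2.1 (0.88), mipb (1.49), bfsp2 (1.496) and dnase1l1l (2.08), and dotted lines mark 2-fold, which the last 3 pass.

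Probes of one gene offer the only repeat of a measurement within these arrays, and they share the RNA, the labelling and the array. For 5908 genes, 2 or more probes were above background on both arrays. In these genes the differences by the 2 brightest probes lay a median of 0.18 log2 units apart, and 95% lay within 0.76. The gap was 0.09 for bfsp2, 0.11 for lim2.1, 0.28 for mipa and 0.56 for mipb. For mipb 10.7% of genes had a gap as wide. These gaps are not alike, since the probe pairs of bfsp2 and lim2.1 overlap by 43 and 34 bases and those of mipa and mipb lie 999 and 2386 bases apart. Of 211 genes past 2-fold on the higher side by the brightest of such probes, 58.8% were so by the next one as well. The next brightest mipb probe was not past 2-fold, and for bfsp2 the overlapping probe and the third, which shares no bases with either, both were. At the level of probes, 10 of the 16 were above background on both arrays, all 10 had a difference above 0 and 5 passed 2-fold, while 47.9% of all probes above background on both arrays had a difference above 0 and 3.96% were at least 2-fold higher.

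**Figure D3:**
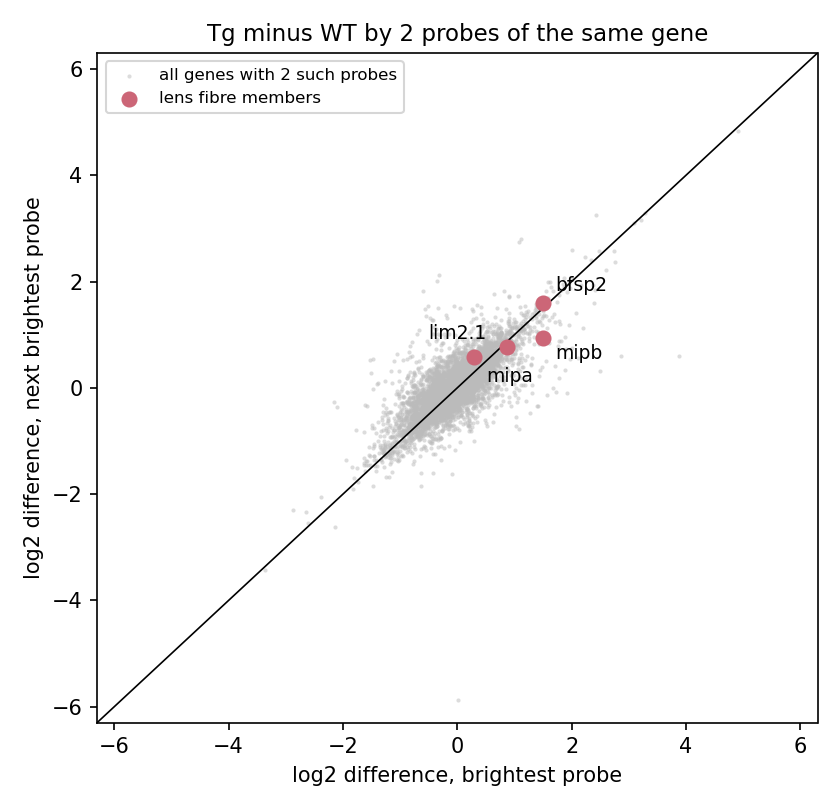
Log2 difference (Tg-labelled minus WT-labelled array) by the brightest probe of a gene (horizontal axis) and by its next brightest probe (vertical axis), for 5908 genes with 2 probes above background on both arrays, with a line of equality. The points of bfsp2 and lim2.1 lie near the line, that of mipb lies below it by 0.56 and that of mipa above it by 0.28.

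Crystallins, the proteins that fill the fibre cell, were read beside the membrane and cytoskeleton genes. Of 54 crystallin genes 49 were above background on 1 array or both, 30 were called higher on the Tg-labelled array and 1 was called lower. The 37 above background on both arrays all had a difference above 0, from 0.06 to 3.42, with a median of 2.24, and 1.70 over all 54 with no filter. The highest were crygm2e (3.42), crygm2d18 (3.28), crygm2f (3.22) and crygm2b (3.19) of the gamma M group of fish. Many genes of this group are near-identical copies whose probes may read each other's RNA, so their count is not a count of separate readings. The other probe of crygm2d18 differed by 3.29. For crygm2f the probe read was at 7.08 (WT) and 10.31 (Tg), and its other probe, at 5.28 and 5.36, was under the limit on both arrays. Above background on the Tg-labelled array alone were crygm3 (at least 6.81-fold higher), crygmxl1 (at least 4.84-fold) and crygm2d6 (at least 3.51-fold). The lower one was cryaba, an alpha B crystallin gene, at 8.38 (WT) and, not above background, 5.84 (Tg), which is at least 3.18-fold lower on the Tg-labelled array. Its second probe was not above background on either array.

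Other genes of fibre cells were less uniform. Of 22 with a probe 16 were above background on 1 array or both, 4 were called higher and none was called lower. Those 4 were lim2.2, lim2.4 and lim2.5, given above, and capn3a, a calpain gene also used in muscle, at 9.88 and 10.97 (1.08), of which no other probe was above background on both arrays. Under 2-fold were, among others, plaat1 (0.91), a phospholipase gene of organelle breakdown in the zebrafish lens, grifin (0.69), a galectin-related gene, caprin2 (0.14), vim (-0.73), the vimentin gene, and cdh2 (-0.99), the N-cadherin gene. In whole embryos the part of these signals that comes from the lens is not known. Of the 14 above background on both arrays 8 had a difference above 0. The median over these 14 was 0.34, and -0.18 with the raised background limit, under which 2 genes were called higher.

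Values of 2 other tissues stood beside those of the lens. Of 12 genes of the retinal pigment epithelium above background on 1 array or both, 5 were called higher and none was called lower, with a median of 0.71 over 10 genes. They were led by rlbp1b (1.47) and rpe65a (1.45, read by 1 probe) of the visual cycle. The rlbp1b probe read was near the limit of background on the WT-labelled array (6.85). Its other probe, not above background there, was at least 2.59-fold higher on the Tg-labelled array. Also among the 5 were the pigment genes tyrp1b (1.24, read by 1 probe) and pmela (1.097, with 0.32 by both of its other probes). In whole embryos the values of these pigment genes cannot be assigned to the pigment epithelium alone. The median of the pigment epithelium list depended on the processing. It was 0.323 with no filter on dim probes, 0.325 with the probe nearest the median difference and 1.09 with the raised background limit. All 26 skeletal muscle genes with a probe were above background, 8 were called higher and none was called lower, with a median of 0.69 and a range from -0.83 to 2.07. Their highest values were those of the myosin gene myhz2 (2.07), the parvalbumin genes pvalb4 (1.80) and pvalb1 (1.56) and the troponin gene tnnt3b (1.64). The part of these lists' differences in the lens values was not tested.

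**Figure D4:**
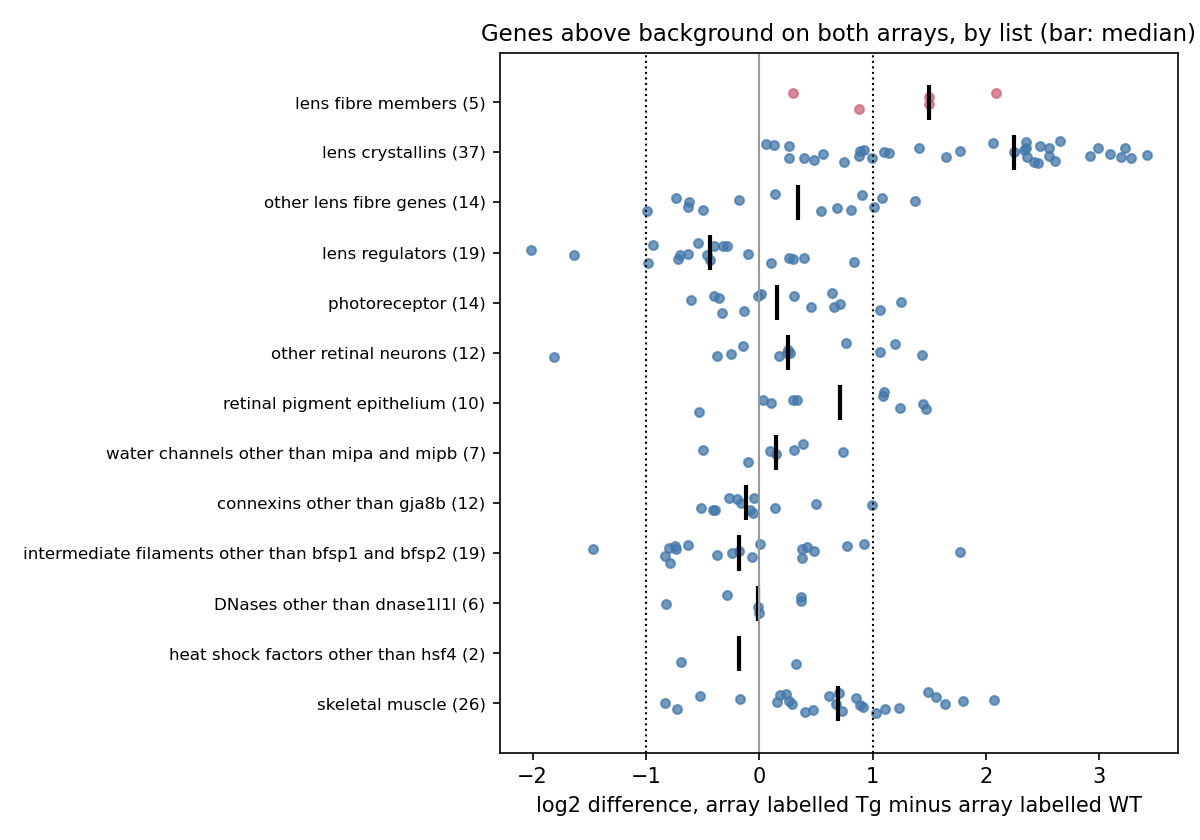
Log2 difference (horizontal axis, Tg-labelled minus WT-labelled array) of each gene above background on both arrays in the lens fibre genes and 12 other lists, with the number of such genes in brackets, a black bar at each median and dotted lines at 2-fold. The median is 1.49 for the lens fibre genes, 2.24 for crystallins, 0.71 for the retinal pigment epithelium and 0.69 for skeletal muscle, and between -0.43 and 0.34 for the other lists.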

How the data were processed

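The authors hybridized embryo RNA to 1-colour Agilent arrays, and the submitters' processing notes name Agilent Feature Extraction, with no version. The deposited values are log2 signals, already normalized per the file headers, with 1 value for each of 43553 probes and a normalization not given in the sources used here. At 99% of the ranks the 2 arrays' sorted values were no more than 0.026 apart. Whether a file pools several arrays is not given either, although the methods speak of triplicates.

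Probes were named through their RefSeq accession (26957 probes), a current symbol (2479) or an older symbol (1598) in a reference table of assembly GRCz12tu, used for names only. Otherwise the name in the files was kept (4353, and 53 that matched several genes), and 8113 were unnamed. No protein or promoter sequence was used here, so the planned sequence comparison was not run. Each array's 75th percentile was subtracted, and the probe brightest on average over both arrays stood for its gene. A gene was called at 2-fold, a fold the study also used, there together with a p-value. Where 1 array alone was above background, the call used a bound: on the dim side the lowest above-background signal of that array, or the probe's own where higher, stood in. Precision is limited by there being 2 arrays.

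The genes and lists were chosen with earlier results of these data known. The genes named are all 8 lens fibre genes, from each other list the 4 largest differences above background on both arrays and up to 3 bounds of at least 2-fold, and hdac4 and h1fx for the direction. Named after their values were seen were cryaba, gja3, gja8a, lim2.3, plaat1, grifin, caprin2, vim and maf. Lists share some genes: hsf4 is also a lens regulator, gja3 and gja8a are also connexins, vim is also an intermediate filament gene and desma a muscle gene. In the same way gfap is in the lists of other retinal neurons and of intermediate filaments. The gene dnase2b is in those of other fibre cell genes and of DNases. The steps were tested on simulated data, with known changes put only into genes well above the background limit. Recovery of changes near that limit was not tested. Python 3.11.15, numpy 2.4.6, pandas 2.3.3 and matplotlib 3.10.9 were used.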

Additional observations from a re-analysis of the deposited data

How the results depend on the processing

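The count of 3 lens fibre genes called higher on the Tg-labelled array, and of none lower, was the same with no scaling, median centring or quantile normalization, with the series-wide table, and with no filter on dim probes, only genes above background on both arrays, the mean over all probes and the probe nearest the median. The series-wide table holds equal values for all 43553 probes, so its outcome was fixed in advance. The scaling alternatives could change little, because the shift by the 75th percentile was -0.001. Sorted values of the arrays also lay within 0.026 of each other at 99% of the ranks. The count was 2 with the limit of background raised to the 99th percentile, 4 at 1.5-fold and 1, dnase1l1l, at 4-fold. At 1.5-fold 12.3% of all genes were called higher, and at 4-fold 0.680%. The median difference of 1.49 was 0.88 with no filter on dim probes, which adds gja8b and hsf4. It was 1.19 with the higher background limit and 1.02 with the mean over all probes, where dnase1l1l was no longer above background on the WT-labelled array. With the mean over probes dnase1l1l differed by 1.70 and mipb by 1.21. Over all genes the count called higher was 769, and 476 with the higher background limit. None of the 31 alternatives to the values over the lens fibre genes turned a direction. The largest changes among them are those given above. No paired analysis was possible because each group has 1 array, and for the same reason no replicate could be left out. Depth in the sense of read counts does not apply to arrays, and signals near the background limit leave gja8b, hsf4 and the WT level of dnase1l1l unresolved.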

Other observations

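Of 19 transcription factor genes of the lens above background, none was called higher on the Tg-labelled array and 2 were called lower. Their median was -0.43, and 5 had a difference above 0, up to 0.83 for maf. The lower ones were pax6b, a regulator of eye and pancreas (levels of 10.99 for WT and 8.98 for Tg, a difference of -2.01, while the second probe, under the limit for Tg, was at least 1.38-fold lower), and six3b of the forebrain and eye (-1.64, with -1.32 and -1.57 by its other probes). Values for sox2 (-0.99) and sox1b (-0.94) were close to 2-fold. The retina was mixed. Of 18 photoreceptor genes above background on 1 array or both, 2 were called higher, arr3a (1.25) and sagb (1.06), both of the arrestin family, none was lower, and the median over 14 was 0.16. The second probes of both genes, under the limit for WT, were at least 1.95-fold (arr3a) and 1.72-fold (sagb) higher. This list's median was 0.64 with the raised background limit and 0.51 with the mean over all probes, and 1 gene was called higher under each. The values of gngt1 and gngt2a, transducin gamma genes, were 0.71 and 0.66. Of 14 genes of other retinal neurons 4 were called higher. These were pou4f1 (1.44), a gene of retinal ganglion cells and sensory neurons, the calretinin genes calb2a (1.201) and calb2b (1.06), and atoh7, needed to form retinal ganglion cells, which was above background on the Tg-labelled array alone (at least 3.04-fold higher).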
